A study of Mus musculus with 9 samples.

Results

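Transcripts of the skeletal muscle contractile apparatus were measured in bulk RNA sequencing of mouse ear skin, through 48 genes that separate fast from slow fibres or run their calcium cycle. All 48 were found by gene name among the 25124 genes of the deposited table. By fibre class 14 mark fast fibres, 9 mark slow fibres, 2 mark developing fibres (Myh3 and Myh8) and 23 are shared. The mice were C57BL/6, and in both groups Staphylococcus epidermidis strain LM087, a bacterium of the skin surface, was swabbed on the ears every other day. Of the 9 libraries, 5 came from mice given the bacterium alone and 4 from mice also given an antibody against CTLA-4, a brake on T cell activation. Whole-tissue RNA came from a dissected skin region of about 1 mm on day 8. Ears without the bacterium, or with the antibody alone, were not analysed here, and the labels give neither age nor sex. Replicates are numbered in the labels without a word on separate animals, so each p-value reflects the spread among these libraries, part of which may be technical.

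Skeletal muscle shortens when myosin heads of the thick filament pull on actin of the thin filament. A nerve impulse opens the voltage sensor Cacna1s, which opens the release channel Ryr1. The released calcium binds troponin and frees the actin sites, and the pump Atp2a1 or Atp2a2 returns the calcium to the store. Fast and slow fibres use different genes for many of these parts, and in the mouse the small muscles of the outer ear lie close to the skin.

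The deposited values are TPM, reads per length scaled to a library total. The length the authors used is the genomic distance from a gene's start to its end, introns included, so deposited TPM of a gene with long introns is low for its transcript. Multiplied by that length and divided by 1 factor per library, the values came out as whole reads, and the libraries held between 10213773 and 13868671 of them. Between genes, levels were therefore compared as reads per length of the longest annotated transcript, here called transcript TPM. By this measure the order began with Myh1, the IIx myosin heavy chain, at a mean of 400 over the 9 libraries. The fast troponin C gene Tnnc2 (363), the skeletal actin gene Acta1 (338) and the fast troponin T gene Tnnt3 (324) came next. The lowest were Casq2 (4.96), Actc1 (3.90) and Myh8 (1.11), which encode the slow and cardiac calsequestrin, cardiac actin and the perinatal heavy chain. All 48 genes had reads in every library. Together they took between 0.70% and 1.12% of the reads outside the 2 ribosomal RNA entries. Those 2 entries held between 30.56% (anti-CTLA-4 replicate 3) and 40.19% (anti-CTLA-4 replicate 1) of a library's listed TPM. The library with 40.19% also had the fewest reads.

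On the deposited TPM scale the leading 6 members were Acta1, Myh1, Tnnc2, Tcap, Tnni2 and Mylpf. Acta1 stood at 439, 388, 491, 570.3 and 343 TPM in bacterium-alone replicates 1 to 5 and at 459, 336, 384 and 307 TPM in anti-CTLA-4 replicates 1 to 4. Tnni2, which encodes the fast inhibitory troponin, stood at 218, 218, 269, 294 and 198 TPM with the bacterium alone and at 245, 234, 169 and 194 TPM with the antibody. For both genes the groups overlapped, and bacterium-alone replicate 4 was the highest of the 9 libraries. The same library was the highest for 37 of the 48 members. Within the bacterium-alone group replicate 5 was the lowest for 34 members, and within the antibody group replicate 1 was the highest for 33.

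The libraries thus shared much of their muscle gene variation. The median deviation of the tested members from their own 9-library mean was 0.107, 0.056, 0.156, 0.453 and -0.103 on the log2 scale in bacterium-alone replicates 1 to 5. In anti-CTLA-4 replicates 1 to 4 it was 0.079, -0.202, -0.251 and -0.242. So antibody replicate 1 lay among the bacterium-alone libraries and the other 3 lay below all of them. Among the 5 bacterium-alone libraries the SD of a member's log2(TPM), without a pseudocount, had a median of 0.257. It was 0.131 once each library's median deviation from the bacterium-alone means was subtracted. Part of that drop is built in, since the same members set the median. In bulk tissue, less muscle in the piece and less RNA per fibre cannot be told apart.

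**Figure D1:**
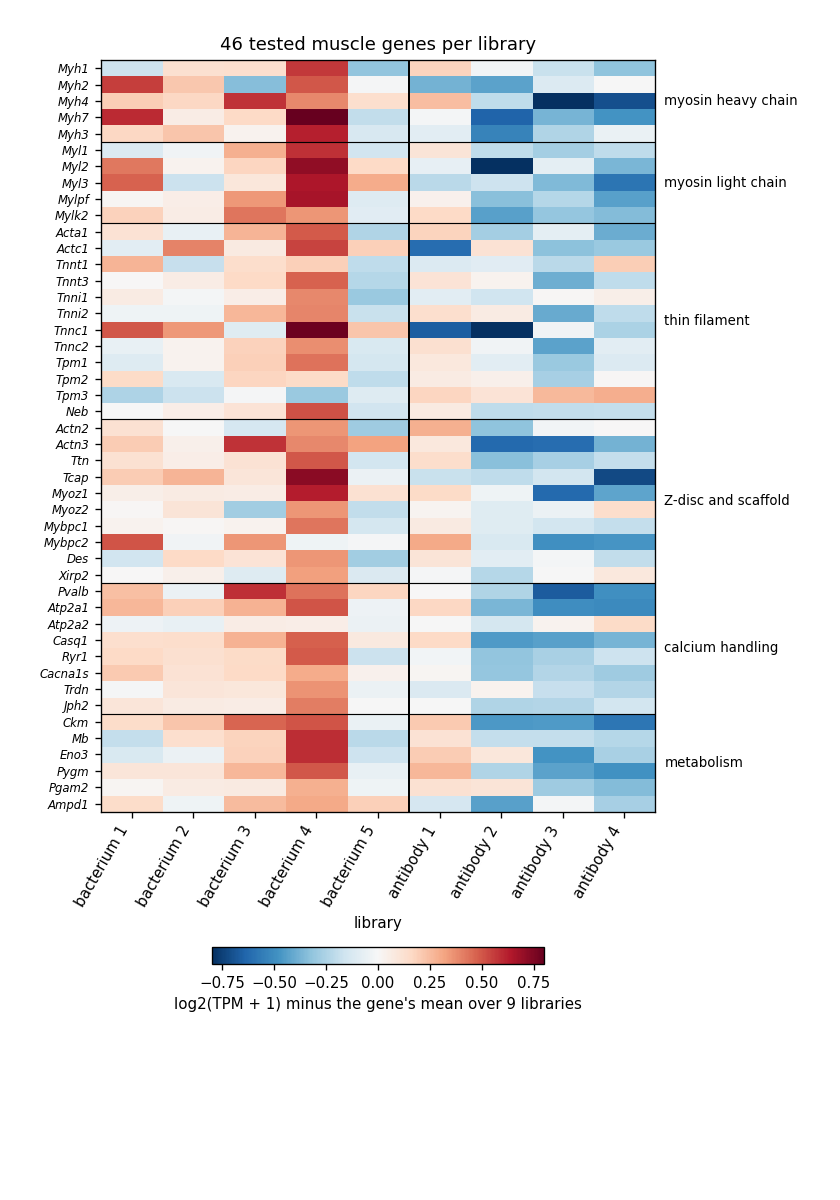
Heat map of log2(TPM + 1) minus the gene's mean over 9 libraries, for the 46 tested members (rows, grouped by role) in the 9 libraries (columns, the 2 groups separated by a black line). Red runs through most of the column of bacterium-alone replicate 4, whose median deviation was 0.453, and blue through anti-CTLA-4 replicates 2 to 4, at -0.202, -0.251 and -0.242.

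With the antibody, 7 of the 46 tested members were lower and 1 was higher, and 38 were not called. The 7 were the fast genes Actn3, Pvalb and Casq1, the slow genes Tnnc1 and Myl3, and the shared genes Cacna1s and Ampd1. Tpm3 was the one that rose. Tested means at least 1 TPM in at least 4 libraries, and called means a limma adjusted p under 0.05 over all 15704 genes tested. In that fit 11.6% of all genes were called, 7.16% higher and 4.48% lower. Fold changes are of log2(TPM + 1), antibody minus bacterium alone, a scale that understates changes of genes with low TPM. They were negative for 43 of 46 members, against 53% of all genes tested, and their median was -0.286, against -0.014 for all genes. At an unadjusted limma p under 0.05, 21 members were lower and 1 was higher, where 12.8% of all genes were lower. The groups did not overlap for 3 members that were lower (Cacna1s, Tcap and Myl2) and for 1 that was higher (Tpm3), against 6.39% and 8.02% of all genes. Myh8 and Casq2 did not reach the minimum level and were not tested.

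The number of members called lower rested on single libraries. It was 0 without bacterium-alone replicate 4 and 0 without anti-CTLA-4 replicate 4. It was 1 without bacterium-alone replicate 1 or antibody replicate 2, 2 without antibody replicate 3, 3 without bacterium-alone replicate 3 and 4 without bacterium-alone replicate 2. Leaving out antibody replicate 1 gave 9. Tpm3 was called in all 9 of these fits. On the reads themselves, tested with limma voom, 16 members were lower (7.25% of all genes), and on transcript TPM 11 were lower (6.51% of all genes). Several other settings gave fewer. A minimum of 5 TPM gave 4 (623 of 11512 genes were lower) and array weights 3 (690 of 15704). No expression filter gave 2 (535 of 22100), and the replicate number as a block gave 0 (88 of 15704). A total without the 2 ribosomal entries gave 3 (716 of 15704), namely Actn3, Cacna1s and Tnnc1. Scaling to all genes but the 50 most abundant changed the split of calls over all genes from 1124 higher and 704 lower to 1205 and 1306, and that of the members from 1 and 7 to 1 and 8. Quantile normalization gave 1314 higher and 1429 lower over all genes, and a common median 1302 and 1313.

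**Figure D2:**
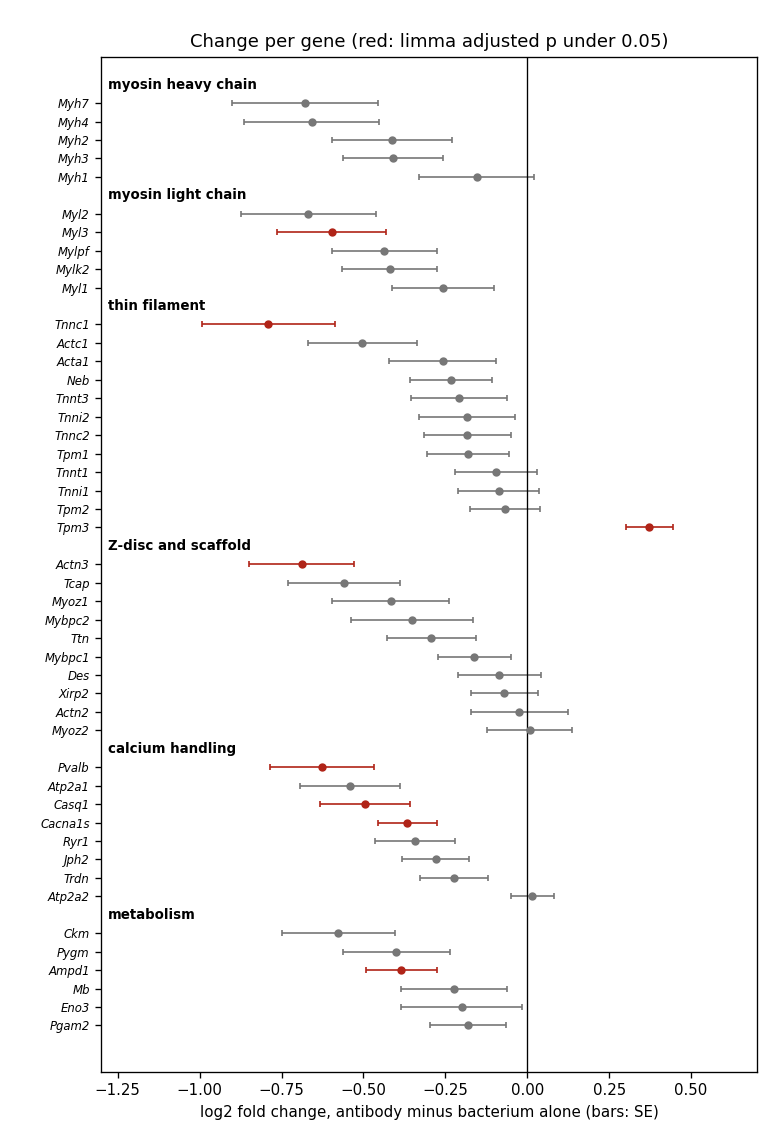
Log2 fold change of log2(TPM + 1), antibody minus bacterium alone, for each of the 46 tested members by role; points are limma estimates and bars are SE (5 and 4 libraries). The 8 called members are red, and Tpm3 at 0.373 is the one to the right of 0 among them.

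Stretches upstream of called genes are printed here beside their values, with the motifs matched in them. RefSeq promoter windows were listed for 38 of the 48 members, and the 250 bases before the annotated start (GRCm38.p6) were searched. For Myl1 and Myl2 that start lies 9690 and 7762 bases from the gene start deposited with the TPM. Printed are the called members with a window other than Pvalb. Also printed is Myh4, the IIb heavy chain gene, which was not called, because its window holds a match of each kind. All are 5′ to 3′ on the gene's strand. Capitals mark CANNTG (the E-box, read by the MyoD family), CATTCC or its complement (the MCAT element, read by TEAD factors), TATAAA on the gene's strand, and the MEF2 and CArG motifs by their usual degenerate forms on both strands.
Myh4 (chr11:67237562-67237811, plus strand): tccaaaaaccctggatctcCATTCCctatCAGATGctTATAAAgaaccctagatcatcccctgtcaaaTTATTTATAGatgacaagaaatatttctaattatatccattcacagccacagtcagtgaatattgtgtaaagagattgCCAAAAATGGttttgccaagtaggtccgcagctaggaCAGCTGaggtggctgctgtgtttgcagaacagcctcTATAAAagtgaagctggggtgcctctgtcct
Tnnc1 (chr14:31208062-31208311, plus strand): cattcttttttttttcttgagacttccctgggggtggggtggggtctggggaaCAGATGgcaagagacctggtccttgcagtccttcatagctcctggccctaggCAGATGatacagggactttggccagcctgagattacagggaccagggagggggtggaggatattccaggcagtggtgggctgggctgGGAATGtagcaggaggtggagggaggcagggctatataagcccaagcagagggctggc
Myl3 (chr9:110763428-110763677, plus strand): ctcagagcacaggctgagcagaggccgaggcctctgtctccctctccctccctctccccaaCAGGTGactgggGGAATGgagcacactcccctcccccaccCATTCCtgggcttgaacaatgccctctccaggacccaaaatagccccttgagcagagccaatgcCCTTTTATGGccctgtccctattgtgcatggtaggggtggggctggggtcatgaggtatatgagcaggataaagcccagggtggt
Cacna1s (chr1:136052561-136052810, plus strand): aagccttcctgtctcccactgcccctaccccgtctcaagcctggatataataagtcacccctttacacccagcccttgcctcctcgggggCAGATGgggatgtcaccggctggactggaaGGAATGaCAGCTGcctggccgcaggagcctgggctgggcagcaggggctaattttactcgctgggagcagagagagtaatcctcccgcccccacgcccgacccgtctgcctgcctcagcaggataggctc
Casq1 (chr1:172219896-172220145, minus strand): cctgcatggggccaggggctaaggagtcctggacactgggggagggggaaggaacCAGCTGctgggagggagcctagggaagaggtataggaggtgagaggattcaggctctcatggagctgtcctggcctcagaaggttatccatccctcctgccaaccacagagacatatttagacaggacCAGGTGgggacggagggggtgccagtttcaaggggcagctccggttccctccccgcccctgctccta
Tpm3 (chr3:90079271-90079520, plus strand): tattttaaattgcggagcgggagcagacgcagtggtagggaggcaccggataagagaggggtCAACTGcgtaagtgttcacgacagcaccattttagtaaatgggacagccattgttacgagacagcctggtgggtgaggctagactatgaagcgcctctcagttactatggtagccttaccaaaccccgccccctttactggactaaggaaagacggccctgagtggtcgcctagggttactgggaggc
In Myh4 a TATAAA begins 31 bases before the start and the E-box CAGCTG 67 bases before it. Cacna1s and Casq1 also hold CAGCTG, and Tnnc1, Myl3 and Cacna1s hold an MCAT match. The Tpm3 window and the unprinted Pvalb window each hold 1 E-box and none of the other motifs.

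Across the 38 windows, an E-box stood in 89.5%, against 63.4% of all 18352 windows of the same length. CAGCTG, which is also counted as an E-box, stood in 47.4% against 12.5%. The MCAT element stood in 26.3% against 11.8%, the MEF2 motif in 21.1% against 1.59%, the CArG motif in 10.5% against 1.35% and TATAAA in 13.2% against 7.89%. A TATAAA can overlap a MEF2 match. These are matches of letters and show neither binding nor a cause.

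None of the 5 tested myosin heavy chain genes was called, where 11.6% of all genes were. All 5 had negative fold changes, with a median of -0.413. These genes encode the motors that set a fibre's speed. Myh4, the IIb chain of the fastest fibres, stood at 149, 146, 195, 170.1 and 143 TPM with the bacterium alone and at 155, 113, 73.9 and 79.5 TPM with the antibody. Antibody replicate 1 overlapped the other group and replicates 2 to 4 lay below it. Its log2 fold change was -0.658 ± 0.206 (SE), with a limma adjusted p of 0.0711, and it was called in 1 of the 9 fits that left out a library (limma adjusted p between 0.0173 and 0.171). That fit left out antibody replicate 1 and gave a log2 fold change of -0.863. Myh1, its neighbour on chromosome 11, stood at 222, 272, 273, 368 and 199.7 TPM against 282, 245, 219 and 199 TPM, with a log2 fold change of -0.155 ± 0.174. Myh7, the slow chain, stood at 7.24, 4.67, 5.09, 9.13 and 3.76 TPM against 4.41, 2.50, 3.21 and 2.91 TPM, with a limma adjusted p of 0.0813. Myh2, the IIa chain, averaged 28.0 ± 7.08 and 20.4 ± 3.06 TPM, and the embryonic Myh3 31.7 ± 6.75 and 23.5 ± 3.53 TPM (SD, n = 5 and n = 4).

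Shares of the 4 adult heavy chains compare levels between genes on the transcript TPM scale. Myh1 made up 58.5% ± 4.20 of them in the bacterium-alone libraries (SD, n = 5) and 66.0% ± 2.85 in the antibody libraries (SD, n = 4). Myh4 made up 33.5% ± 4.21 and 26.8% ± 4.47, and the groups overlapped for both genes. The slow Myh7 held between 0.99% and 1.69% with the bacterium alone and between 0.64% and 0.97% with the antibody. Nearly all adult heavy chain transcripts were thus of the 3 fast genes in both groups. The ratio of Myh4 to Myh1 was 0.628, 0.502, 0.667, 0.432 and 0.667 with the bacterium alone and 0.514, 0.431, 0.315 and 0.373 with the antibody, with overlap, and was not tested. The embryonic Myh3, which regenerating fibres also use, took 6.46% ± 0.620 and 6.18% ± 1.43 of the 6 heavy chains. The heavy chain genes are near copies of one another, and no source used here says how reads that fit several of them were counted, which leaves these values uncertain.

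**Figure D3:**
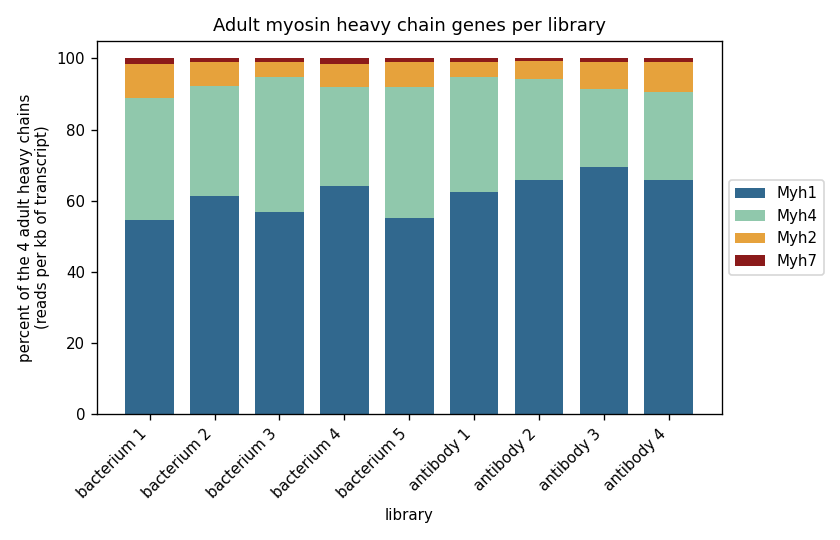
Share in percent of each adult myosin heavy chain gene in the sum of the 4, from reads per kb of transcript, one stacked bar per library. Myh1 is between 54.6% and 69.56% of every bar, and Myh7 is at most 1.69%.

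Of the 5 light chain genes 1 was lower, where 4.48% of all genes were, and all had negative fold changes (median -0.436). For a role with 1 gene called, that count is no result about the role. Light chains steady the neck of the myosin motor. Myl3 (mm10 chr9:110763678-110769802, plus strand), the slow essential chain, stood at 3.51, 1.90, 2.47, 4.10 and 3.0 TPM with the bacterium alone and at 1.80, 1.90, 1.55 and 1.17 TPM with the antibody. It fell by 0.597 ± 0.167 (SE) on the log2 scale, with a limma adjusted p of 0.0478, and the groups overlapped through bacterium-alone replicate 2. These values rest on 13 to 37 reads a library, and the call held in 1 of the 9 fits that left out a library. Myl2, the slow regulatory chain, stood at 6.51, 4.72, 5.33, 8.17 and 5.26 TPM against 4.36, 1.86, 4.32 and 3.36 TPM. Its groups did not overlap, on 16 to 71 reads a library, and its limma adjusted p was 0.0670. Mylpf, the fast regulatory chain, averaged 226 ± 51.4 and 165 ± 24.0 TPM (SD, n = 5 and n = 4). Myl1, the fast essential chain, averaged 27.1 ± 6.48 and 22.2 ± 2.83 TPM. Mylk2, the kinase of the regulatory chain, had a limma adjusted p of 0.0950.

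Among 12 thin filament genes, 1 was lower and 1 was higher, where 4.48% and 7.16% of all genes were. The median fold change was -0.184. Tnnc1 (mm10 chr14:31208312-31211729, plus strand), the troponin C of slow and cardiac muscle that binds the calcium, stood at 7.44, 6.63, 4.60, 9.34 and 5.99 TPM with the bacterium alone. With the antibody it stood at 2.80, 2.40, 4.86 and 4.03 TPM, so only antibody replicate 3 reached the range of the other group. It fell by 0.790 ± 0.203 (SE) on the log2 scale, the lowest fold change of the 46 tested members, with a limma adjusted p of 0.0362. The values rest on 12 to 47 reads a library, and the call held in 2 of the 9 fits that left out a library. Its fast counterpart Tnnc2 stood at 239, 254, 283, 323 and 229 TPM against 272, 244, 185 and 235 TPM, with a log2 fold change of -0.183 ± 0.132.

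Tpm3 (mm10 chr3:90079521-90100902, plus strand), a tropomyosin that covers actin in slow fibres and is also made in many other cell types, moved the other way. It stood at 36.2, 38.2, 42.9, 35.1 and 40.2 TPM with the bacterium alone and at 48.8, 46.7, 51.9 and 53.0 TPM with the antibody, with no overlap. It rose by 0.373 ± 0.071 (SE) on the log2 scale, with a limma adjusted p of 0.0116. The 6 leukocyte markers, taken as a sum, were higher with the antibody too. They summed to between 219 and 318 TPM with the bacterium alone and between 327 and 547 TPM with the antibody. Of this sum Lyz2 alone averaged 200 and 326 TPM, and the part of leukocytes in the result was not tested. The other two tropomyosins were not called: Tpm1 averaged 57.9 ± 9.98 and 50.5 ± 5.50 TPM and Tpm2 117 ± 14.3 and 111 ± 11.4 TPM (SD, n = 5 and n = 4). Actc1, the cardiac actin also made by immature fibres, averaged 3.17 ± 0.721 and 1.95 ± 0.627 TPM, with a limma adjusted p of 0.0837. Tnnt1, Tnnt3, Tnni1, Tnni2, Acta1 and Neb had log2 fold changes between -0.258 and -0.087, and none was called.

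**Figure D4:**
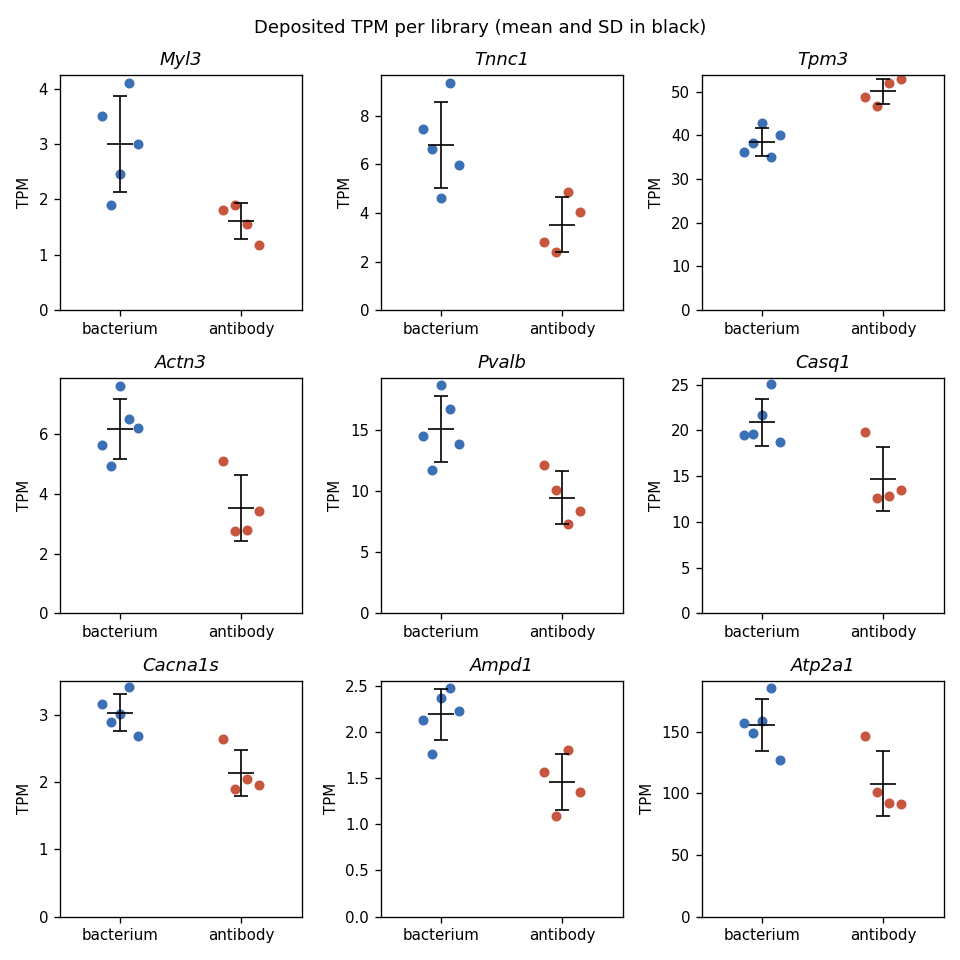
Deposited TPM of the 8 called members and of Atp2a1 in each of the 5 bacterium-alone (blue) and 4 antibody (red) libraries; black marks show the mean and SD, and each vertical axis starts at 0. The groups are apart for Tpm3, higher with the antibody, and for Cacna1s, lower, while antibody replicate 1 (the leftmost red point) is the highest of its group for Actn3, Pvalb, Casq1, Cacna1s and Atp2a1.

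Of the 10 Z-disc and scaffold genes 1 was lower, where 4.48% of all genes were, and the median fold change was -0.227. Actn3 (mm10 chr19:4861216-4877909, minus strand), the α-actinin that anchors thin filaments in fast fibres, stood at 5.62, 4.94, 7.61, 6.51 and 6.22 TPM with the bacterium alone. With the antibody it stood at 5.11, 2.75, 2.77 and 3.43 TPM, and only replicate 1 overlapped the other group. It fell by 0.688 ± 0.160 (SE) on the log2 scale, with a limma adjusted p of 0.0244, and stayed called in 5 of the 9 fits that left out a library. Actn2, the α-actinin of all fibres, was not called: it stood at 9.12, 8.28, 7.47, 10.9 and 6.62 TPM against 10.3, 6.45, 8.15 and 8.34 TPM. Its log2 fold change was -0.024 ± 0.149, and it turned positive under array weights, on reads and without the ribosomal entries.

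Tcap, the small titin cap of the Z-disc, stood at 263, 275, 243, 377 and 221 TPM with the bacterium alone and at 201, 198, 206 and 138 TPM with the antibody. The groups did not overlap, and the limma adjusted p was 0.0643. Ttn, the spring that runs through the sarcomere, averaged 112 ± 19.1 and 91.1 ± 14.3 TPM (SD, n = 5 and n = 4). Myoz1 and Mybpc2, the fast calsarcin and the fast myosin-binding protein C, had log2 fold changes of -0.417 and -0.352. The slow calsarcin Myoz2 was at 0.007, a sign that flipped under quantile normalization and without the 50 most abundant genes in the total. Mybpc1, the desmin gene Des and Xirp2 lay between -0.162 and -0.070. None of these 8 genes was called.

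The median fold change of the 8 tested calcium handling genes was -0.356, against -0.413 for heavy chains and -0.436 for light chains. Of the 8 genes 3 were lower, where 4.48% of all genes were. The 3 were the voltage sensor Cacna1s, the store protein Casq1 and the calcium buffer Pvalb. Cacna1s (mm10 chr1:136052811-136119822, plus strand) stood at 3.16, 2.89, 3.02, 3.43 and 2.69 TPM with the bacterium alone and at 2.64, 1.90, 2.06 and 1.96 TPM with the antibody, without overlap. It fell by 0.367 ± 0.090 (SE) on the log2 scale, with a limma adjusted p of 0.0309. Pvalb (mm10 chr15:78191112-78204237, minus strand), the parvalbumin that takes up calcium in fast fibres, stood at 14.5, 11.7, 18.7, 16.8 and 13.8 TPM against 12.2, 10.1, 7.28 and 8.35 TPM. Only antibody replicate 1 passed the lowest bacterium-alone library. Its log2 fold change was -0.626 ± 0.159 (SE), with a limma adjusted p of 0.0345. Casq1 (mm10 chr1:172209894-172219895, minus strand), the fast calsequestrin that holds calcium inside the store, stood at 19.5, 19.6, 21.6, 25.1 and 18.7 TPM against 19.8, 12.7, 12.8 and 13.4 TPM. Antibody replicate 1 lay inside the other group and the remaining 3 lay well below it, and the log2 fold change was -0.496 ± 0.137 (SE), with a limma adjusted p of 0.0465. In the 9 fits that left out a library, Pvalb stayed called in 3, Cacna1s in 2 and Casq1 in 1.

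Neither pump gene was called. Atp2a1, the fast pump SERCA1, stood at 157, 149, 158, 186 and 127 TPM with the bacterium alone and at 146, 101, 92.2 and 91.5 TPM with the antibody. Its log2 fold change was -0.540 ± 0.153 (SE) and its limma adjusted p 0.0510, and it was called in 2 of the 9 fits that left out a library (bacterium-alone replicate 5 or antibody replicate 1; limma adjusted p between 0.0131 and 0.129) and under 5 of the 15 other alternatives (between 0.0173 and 0.0967). Atp2a2, the slow and housekeeping pump SERCA2, stood at 48.7, 48.1, 52.3, 52.2 and 48.6 TPM against 50.0, 45.4, 51.2 and 55.9 TPM. Its log2 fold change was 0.015 ± 0.066, with a sign that turned under quantile normalization and without the 50 most abundant genes in the total. The release channel Ryr1 averaged 9.36 ± 1.70 and 7.11 ± 0.743 TPM (SD, n = 5 and n = 4), with a limma adjusted p of 0.104. Trdn, and Jph2, which holds the store against the surface membrane, had log2 fold changes of -0.224 and -0.280 and were not called. Casq2 was below the tested level, with 36 to 62 reads a library, and averaged 0.577 ± 0.0444 and 0.489 ± 0.0531 TPM.

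All 6 metabolic genes had negative fold changes (median -0.304) and 1 was called lower, where 4.48% of all genes were. Ampd1 (mm10 chr3:103074014-103099720, plus strand), which deaminates AMP in working muscle, stood at 2.13, 1.76, 2.37, 2.48 and 2.22 TPM with the bacterium alone and at 1.57, 1.09, 1.80 and 1.35 TPM with the antibody. Only antibody replicate 3 overlapped the other group, above bacterium-alone replicate 2. Its log2 fold change was -0.384 ± 0.107 (SE), with a limma adjusted p of 0.0473, held in 2 of the 9 fits that left out a library. Ckm, the muscle creatine kinase, stood at 46.5, 49.1, 58.2, 59.9 and 40.4 TPM against 48.6, 30.3, 30.3 and 27.7 TPM, with a limma adjusted p of 0.0615. The glycogen phosphorylase Pygm, the glycolytic enzymes Eno3 and Pgam2 and the oxygen store myoglobin (Mb) had log2 fold changes between -0.400 and -0.180, and none was called.

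To set fast against slow isoforms within a library, the difference of log2(TPM + 1) between both genes was taken for 12 pairs. The measure can still move with the amount of muscle, since Atp2a2, Tpm1 and Tpm3 are also made outside muscle and the pseudocount of 1 shrinks the change of a slow gene with low TPM. With a pseudocount of 0.1, Casq1 to Casq2 differed by -0.319 in place of -0.413, Myh4 to Myh7 by 0.153 in place of 0.021 and Mylpf to Myl2 by 0.378 in place of 0.232. None of the 12 differences passed the exact two-sided permutation test after adjustment over the pairs, and 3 had an unadjusted p under 0.05. The smallest p this design allows is 0.0159, so several pairs would have to reach it before any could pass the adjustment. The change was negative, toward the gene named last in the pair, in 8 pairs. Among those genes Actn2, Mybpc1 and Tpm3 are classed as shared, not slow, and so is Tpm1.

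The Z-disc pair Actn3 to Actn2 was at -0.612, -0.644, 0.024, -0.663 and -0.079 with the bacterium alone and at -0.889, -0.992, -1.278 and -1.075 with the antibody. The groups did not overlap, the means differed by -0.663, and the exact permutation p was 0.0159, or 0.0952 adjusted over the pairs. Tpm1 to Tpm3 was at 0.461, 0.517, 0.516, 1.042 and 0.279 against 0.228, 0.121, -0.240 and -0.078. These groups did not overlap either, with a difference of -0.555 and the same exact permutation p of 0.0159, adjusted 0.0952. The pump pair Atp2a1 to Atp2a2 was at 1.666, 1.612, 1.581, 1.810 and 1.365 against 1.532, 1.138, 0.836 and 0.7. Antibody replicate 1 overlapped the other group, and the difference was -0.555 (exact permutation p = 0.0317, adjusted 0.127). The store pair Casq1 to Casq2 changed by -0.413 (exact permutation p = 0.0635, adjusted 0.190) and Myoz1 to Myoz2 by -0.425 (p = 0.0952, adjusted 0.229).

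The motor pairs differed toward the fast gene, Myh4 to Myh7 by little and with a sign that turned in some fits. The troponin pairs went both ways. Myh4 to Myh7 differed between the groups by 0.021 (exact permutation p = 0.873), Mylpf to Myl2 by 0.232 (p = 0.302) and Myl1 to Myl3 by 0.340 (p = 0.143). For troponin the difference was -0.113 in Tnnt3 to Tnnt1 (exact permutation p = 0.508), -0.097 in Tnni2 to Tnni1 (p = 0.540) and 0.607 in Tnnc2 to Tnnc1 (p = 0.127). Mybpc2 to Mybpc1 differed by -0.190 (exact permutation p = 0.413). On the transcript TPM scale the fast gene was the more abundant in most pairs: with the bacterium alone the ratio averaged 46.2 ± 5.62 for Tnni2 to Tnni1, 31.7 ± 9.16 for Tnnc2 to Tnnc1 and 5.21 ± 0.806 for Tnnt3 to Tnnt1 (SD, n = 5). Actn3 to Actn2, at 0.184 ± 0.0507, and Mybpc2 to Mybpc1, at 0.0845 ± 0.0240, ran the other way. The Z-disc pair Myoz1 to Myoz2 averaged 1.38 ± 0.233. Actn2 and Mybpc1 are known to be used in fast fibres too.

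**Figure D5:**
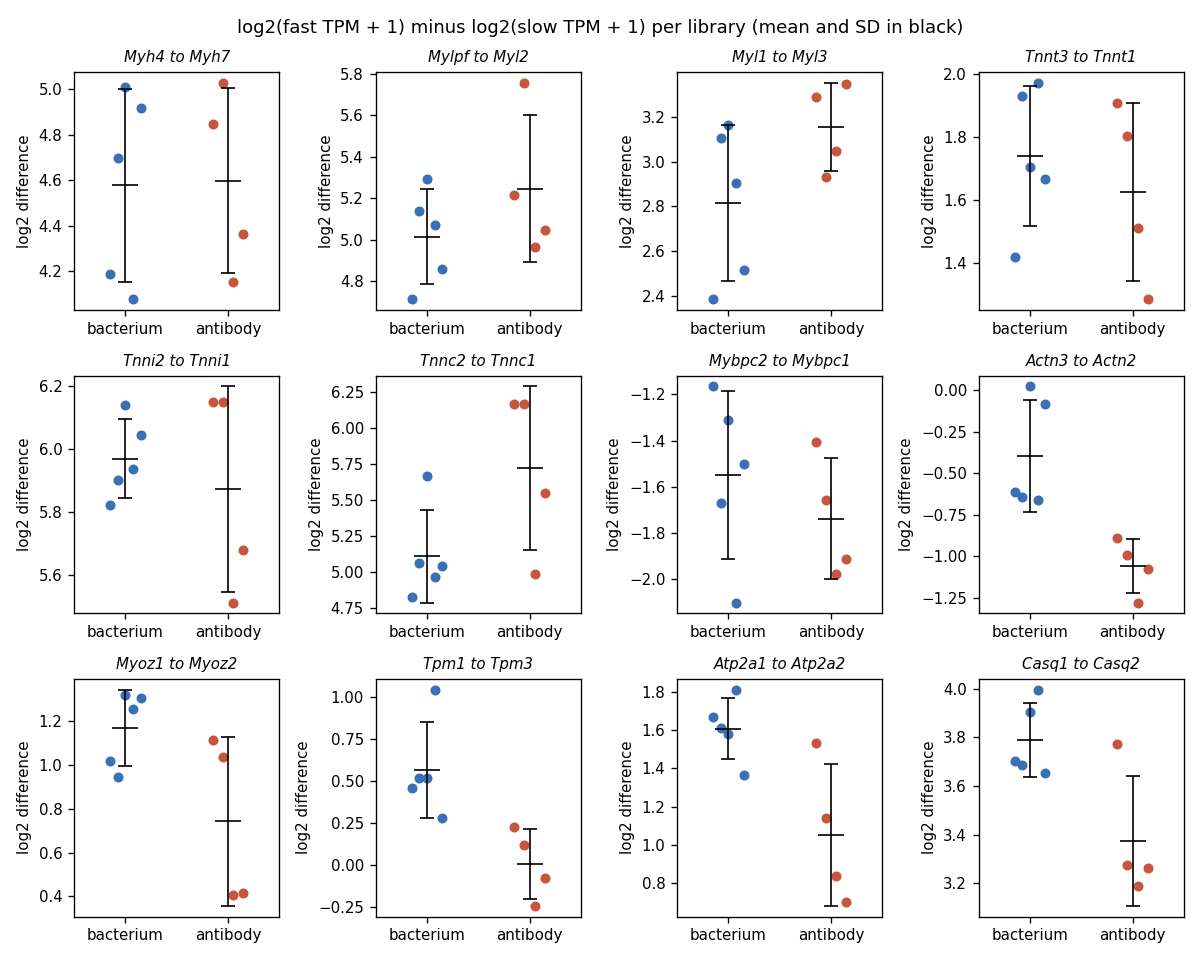
log2(fast TPM + 1) minus log2(slow TPM + 1) in each of the 5 bacterium-alone (blue) and 4 antibody (red) libraries for the 12 pairs, with mean and SD in black; vertical axes differ between panels and do not start at 0. The groups separate in Actn3 to Actn2 and in Tpm1 to Tpm3, both lower with the antibody, and overlap in the other 10.

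Few further muscle genes were called, where 7.16% of all genes were higher and 4.48% lower, and these small counts are no result about them. Of 23 tested further sarcomere and Z-disc genes, 1 was higher and 1 lower, with a median fold change of -0.127. Xirp1, an actin-binding repeat protein of damaged and remodelling fibres, went up, at 9.46 ± 1.5 TPM with the bacterium alone (SD, n = 5) and 16 ± 4.49 TPM with the antibody (SD, n = 4), and its limma adjusted p was 0.0443. The kinase gene Mylk4 fell from 2.35 ± 0.401 to 1.42 ± 0.203 TPM (limma adjusted p = 0.0229). Of 13 tested triad and calcium genes, 1 was lower and none was higher: Hrc, a calcium-binding protein of the store, went from 62.3 ± 9.80 to 44.8 ± 5.38 TPM (limma adjusted p = 0.0381). Of 13 energy genes 1 was lower, Art1, an ADP-ribosyltransferase of muscle, from 7.38 ± 1.01 to 5.05 ± 0.351 TPM (limma adjusted p = 0.0143). Fold changes were negative for 17 of the 23 sarcomere genes, 9 of the 13 triad genes (median -0.090) and 8 of the 13 energy genes (median -0.082), where 53% of all genes were negative.

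Of 10 myogenic and satellite cell genes 4 were tested and 1 was lower, Myod1, a master regulator of the muscle lineage, from 3.56 ± 0.502 to 2.12 ± 0.639 TPM (limma adjusted p = 0.0345) on 6 to 17 reads a library. Of 9 tested denervation and atrophy genes none was lower and 1 was higher, Runx1, a transcription factor that denervated muscle and leukocytes both use, from 8.88 ± 0.856 to 11.5 ± 1.30 TPM (limma adjusted p = 0.0382). The 7 cardiac muscle genes summed to between 7.23 and 13.8 TPM with the bacterium alone and between 8.14 and 11.7 TPM with the antibody. Tnnt2 lay between 3.01 and 6.86 TPM, Tnni3 between 1.29 and 4.21 TPM and Nppa between 0 and 4.02 TPM. The cardiac heavy chain Myh6 lay between 0.028 and 0.229 TPM and the atrial light chain Myl7 between 0 and 1.03 TPM, and none of the 3 tested cardiac genes was called.

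Markers of the other tissues in the ear are given here beside the muscle genes. All 8 adipocyte genes had negative fold changes (median -0.206) and none was called, their sum lying between 175 and 238 TPM with the bacterium alone and between 146 and 222 TPM with the antibody. Cartilage genes summed to between 223 and 333 against between 200 and 271 TPM, with 0 of 7 tested called. Smooth muscle genes summed to between 55.7 and 65.2 against between 55.0 and 65.5 TPM, with 0 of 5 called. Of 6 leukocyte genes 5 were higher, among them Ptprc, the common leukocyte antigen, at 9.93 ± 1.66 and 21.8 ± 3.86 TPM (SD, n = 5 and n = 4; limma adjusted p = 0.00329). Of 6 fibroblast genes 0 were called, and of 6 keratinocyte genes 1 was higher and 1 lower. No gene of these lists was at 0 in all 9 libraries, and their part in the muscle gene values was not tested.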

How the data were processed

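RNA of 9 ear skin libraries was sequenced, per the labels' protocols from 500 ng each. Groups and replicate numbers come from the titles. TPM per gene was deposited by the authors with gene positions, and the submitters' processing notes name STAR, HOMER, DESeq2 and mm10. No source used here gives their roles or versions, the strand setting or whether intron reads were counted. The deposited length equals end minus start for 99.24% of genes. TPM times length, divided by a factor found for each library from its genes with low values, gave whole reads for 145478 of 145478 values checked (within 0.1 reads, up to 3000 reads).

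The whole table was fitted with limma 3.58.1 in R 4.3.3 on log2(TPM + 1) with a variance trend, after a minimum of 1 TPM in 4 libraries, with Benjamini-Hochberg adjustment over 15704 genes and a threshold of 0.05. Pairs were tested by exact permutation. Scripts were tested on simulated data. Transcript TPM used the longest GENCODE transcript. The members, pairs and lists were chosen with earlier results of these data known. Every member is accounted for: called members, the 6 of highest TPM and pair genes with most detail, the others by counts, ranges or single values. Of each other list at most 3 tested genes are named by p, and the cardiac genes Myh6 and Myl7 were named after their values were seen. Some member genes share their span with another gene (Myh1 with Myhas, Myh7 with Mhrt, Tnnt3 with Prr33, Neb with 4930573O16Rik, Ckm with A930016O22Rik, Atp2a1 with Rabep2), whose reads cannot be told apart without strand.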

Additional observations from a re-analysis of the deposited data

Results flagged for a closer look

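Of 120 groups of values checked for a library far from the rest of its group, 11 held one, where chance gives about 1 in 20. The groups are not independent, since all come from the same 9 libraries and the members moved together. The number is therefore no test. In anti-CTLA-4 replicate 1, 5 members were far above the other 3 antibody libraries: Myl1 at 26.4 TPM (group median 21.1), Neb at 24.9 TPM (20.5), Casq1 at 19.8 TPM (13.1), Ckm at 48.6 TPM (30.3) and Mb at 80.1 TPM (64.5). The same library held a Casq1 to Casq2 log2 difference of 3.772 against a group median of 3.27. In bacterium-alone replicate 4, Myoz1 (8.76 TPM, group median 5.62), Mybpc1 (15.2 TPM, median 11.3) and Jph2 (2.27 TPM, median 1.57) were far above the rest. Tcap was at 138 TPM in anti-CTLA-4 replicate 4, far below its group median of 199.9 TPM. The Tnnc2 to Tnnc1 log2 difference of bacterium-alone replicate 3 was 5.665, against a group median of 5.041.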

How the results depend on the processing

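The number of members called lower, 7 as reported, was 2 with no expression filter, 4 with a minimum of 5 TPM, 3 with array weights, 13 among protein-coding genes only and 15 at a threshold of 0.1. 3 alternatives were added after seeing the data: transcript TPM gave 11, voom on reads 16 and a total without the 2 ribosomal entries 3. Without those entries Pvalb, Casq1, Myl3 and Ampd1 were no longer called (limma adjusted p of 0.0526, 0.078, 0.0576 and 0.0517). Leaving out each library in turn gave between 0 and 9. The values showed no sign that replicate numbers pair the samples (correlations of deviations -0.009, 0.018, -0.091 and -0.093, and no antibody library was closest to its own number). This check cannot exclude that same-numbered libraries shared a batch. With the replicate number as a block, 0 members were called lower and 0 higher by limma, with 21 lower and 1 higher at an unadjusted p under 0.05, and over all genes the calls went to 593 higher and 88 lower. Under the other alternatives and each left-out library 1 member, Tpm3, was called higher. The 8 called genes kept their direction in every fit run. The count of 0 isoform pairs did not change, which says nothing about stability, since the smallest p the permutations allow nearly fixes it.

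The values that changed sign all belonged to uncalled results. Over all fits Tpm2 ranged from -0.128 to 0.008 and Xirp2 from -0.111 to 0.004. Actn2 went to 0.032 with array weights, 0.0019 with voom and 0.0036 without the ribosomal entries, and between -0.123 and 0.0777 with a library left out. Myoz2 went to -0.0119 with quantile normalization, -0.006 without the 50 most abundant genes and -0.0416 with the block, and between -0.0616 and 0.0965 with a library left out. Atp2a2 went to -0.0002 and -0.0057 under those scalings, and between -0.0326 and 0.0655 with a library left out. The Myh4 to Myh7 difference was -0.091 by medians and lay between -0.122 and 0.169 with a library left out, that of Tnnt3 to Tnnt1 between -0.207 and 0.001, and that of Tnni2 to Tnni1 between -0.189 and 0.023. The cause was not tested. Myl3, Tnnc1, Actc1 and Myod1 rest on fewer than 50 reads a library and Myl2 on 16 to 71, which limits their precision.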
